A study of Mus musculus with 96 samples.

Results

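The contacts of a single fragment of mouse chromosome 4, the viewpoint labelled 152.4 Mb, are described here on the C57Bl6 chromosome of mouse embryonic fibroblasts (MEFs). The comparison is between +DBl6, the intact C57Bl6 chromosome of cells whose 129S5 copy carries an engineered deletion, and +Bl6, the C57Bl6 chromosome of cells with no deletion. Members were taken from the labels by viewpoint and allele, which gave 4 of the 96 libraries of the series. The deleted cells had the genotype df/+Bl6 and came from the lines labelled 129S5E71 (E71) and 129S5E98 (E98). The control cells had the genotype +129/+Bl6 and came from 129S5E117 (E117) and 129S5E118 (E118). All 4 lines were made from day 13.5 embryos of Df/Dp chimeric males mated with C57BL6/J, with strain labels C57BL/6J and 129S5SvEvBrd, and were used after confluence at passage 4. The deletion removes the viewpoint from the 129S5 chromosome (Df) but not from +DBl6. By the labels each library thus stands for 1 line of cells, and a comparison of libraries compares these lines. The +DBl6 libraries shared many of their captures, as given below, and were not counted as separate. The 2 control libraries of the other allele, +129, were used as a reference for the spread. The question was whether the loss of the region on 1 homologue was accompanied by other contacts of the same region on the intact one.

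PE-4Cseq is a form of 4C sequenced from both ends, in which DNA segments that lay close together in fixed nuclei are joined. Chromatin is cut with HindIII, ligated, cut again with DpnII and circularised, and an inverse PCR from the viewpoint then amplifies whatever was ligated to it. One read of a pair carries a strain polymorphism next to the viewpoint primer and so names the allele, and the other read names the captured fragment. On a chromosome fibre, contacts fall steeply with distance, so that fragments near the viewpoint are captured from many nuclei and distant ones from few. A distant fragment that was captured in a single molecule can still give many reads after PCR, because the reads carry no molecular identifiers. Contacts are therefore given below both as reads and as captured fragments, that is HindIII fragments with at least 1 read.

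The viewpoint fragment was chr4:152480954-152483938 (mm9, the NCBI37 build), a 2985 bp HindIII fragment. In the gencode annotation of that build it was intergenic, 544 kb from Nphp4 on the centromere side and 263 kb from Ajap1 on the telomere side. The end of the fragment that was amplified is shown because every contact below starts from it. The HindIII site at its left and the first DpnII site are in capitals, 5′ to 3′ on the plus strand of NCBI37, chr4:152480948-152481158.
Viewpoint end: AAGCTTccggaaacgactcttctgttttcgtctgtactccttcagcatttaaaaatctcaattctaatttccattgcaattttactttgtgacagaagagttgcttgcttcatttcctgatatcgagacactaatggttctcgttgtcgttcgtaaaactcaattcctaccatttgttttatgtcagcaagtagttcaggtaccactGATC
The genomic parts of both viewpoint primers, as the study designed them, lie inside this stretch. The primer on the HindIII side reads out through the site into the captured fragment, and its site is in capitals.
Primer on the HindIII side, minus strand: aagagtcgtttccggAAGCTT
Primer on the DpnII side, plus strand: caattcctaccatttgttttatgtcag

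Line E71 gave 1624491 +DBl6 reads on chromosome 4 from 2308 captured fragments, and line E98 gave 2659299 reads from 3228. For +Bl6, line E117 gave 119821 reads from 2048 fragments and line E118 gave 1432790 from 5886. Line E117 was thus the shallowest library, and line E118 had the most captured fragments on a moderate number of reads. The allele labels held: reads assigned to 129S5 were 0.052% (95% Wilson interval 0.0486 to 0.0556) of both alleles in E71 and 0.274% (0.268 to 0.281) in E98, against 45.3% in E117 and 48% in E118. These intervals, like all intervals on reads here, cover counting error only.

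The 2 +DBl6 libraries did not behave as separate captures. Beyond 0.5 Mb from the viewpoint they shared 1696 fragments, which were 82.7% of the fragments of E71, and log reads at the shared fragments correlated at 0.973. The 2 +Bl6 libraries shared 919 fragments, 50.4% of those of E117, with a correlation of 0.23, and the +129 pair correlated at 0.299. The fragments captured in both +DBl6 lines carried 99.8% of their reads beyond 0.5 Mb, with a median of 60.5 reads. The 1274 fragments seen in E98 alone and the 354 seen in E71 alone had a median of 1 read each. The +DBl6 counts were therefore summed and entered every comparison as 1 library of 4283790 reads and 3585 captured fragments. With 1 library on this side, differences are judged against the spread of the controls.

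Some sharing also ran between lines. Of the 1274 fragments of E98 alone, 62.2% were captured in +Bl6 of E118 and 15.5% in +Bl6 of E117, while 11.7% and 3.8% of all HindIII fragments beyond 0.5 Mb were captured in those libraries. All 10 of the most-read fragments of +Bl6 E118 beyond 2 Mb were also captured in +DBl6 E98, and 1 of the 10 in E71. Conversely, all 10 of the most-read distal fragments of the summed +DBl6 were captured in +Bl6 E118, and 4 of 10 in E117. At the 3 most-read of these 10, E118 held 2, 2 and 3 reads against 34963, 27309 and 25320 in +DBl6. How such low counts arose was not tested, and captured fragments are given below also with a minimum of 5 reads.

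Whether the intact homologue held more of its reads close to the viewpoint than the controls depended on the zone left out. After leaving out a zone of 20 kb on each side of the viewpoint, +DBl6 held 56.3% of its reads between 20 kb and 0.5 Mb, with 56.9% in E71 and 55.9% in E98. The +Bl6 shares were 57.3% in E117 and 51% in E118, and the +129 shares were 58% and 50.9%. The +DBl6 value lay between the 2 +Bl6 libraries, and the difference from their mean, 2.19 percentage points, was smaller than their SD of 4.42 (n = 2). With a zone of 50 kb in place of 20 kb, the share was 46.3% in +DBl6, 44% in E117 and 42.9% in E118, so that +DBl6 was above both, by 2.88 points over their mean with an SD of 0.757. E117 and E118 differed from each other in the same way on both alleles with the 20 kb zone. Within the purification batches named in the methods, which paired E71 with E117 and E98 with E118, the values were 56.9% against 57.3% and 55.9% against 51%. From 0.5 Mb to 2 Mb the share was 13.8% in +DBl6, below all 4 control libraries, which held 14.6% to 18%. Beyond 2 Mb the share was 29.9% in +DBl6, 28.1% in +Bl6 E117 and 33.7% in +Bl6 E118. The difference from the control mean was -1.02 points with a control SD of 3.95. With the 50 kb zone the distal shares were 36.7%, 36.9% and 39.3%, with +DBl6 below both. Wilson intervals of these shares at 95% confidence were 0.092 to 0.62 points wide. They take each read as a separate draw, although PCR copies are not separate. The error from the number of captured molecules was not measured and may be larger.

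By captured fragments, +DBl6 lay within the range of the +Bl6 libraries in each of the wide distance bands below. Smaller stretches could leave this range. Of the 80 kb windows tested further below, 9.31% had more captured fragments than both +Bl6 libraries and 18.8% had fewer than both. From 20 kb to 100 kb, 98% of the 51 HindIII fragments were captured in +DBl6, 94.1% in +Bl6 E117 and 98% in +Bl6 E118. From 100 kb to 500 kb the shares of 219 fragments were 92.2%, 76.3% and 92.2%. In these bands +DBl6 and E118 captured nearly all fragments, so the counts there leave little room to show a gain over E118. E117, the shallowest library, captured fewer. From 0.5 Mb to 2 Mb the shares were 69.3%, 49.7% and 82.9% of 719 fragments, from 2 Mb to 10 Mb 23%, 9.34% and 31.4% of 2515, and beyond 10 Mb 5.01%, 2.75% and 9.46% of 44807. Beyond 0.5 Mb the intact homologue thus lay between E117 and E118 in all 3 bands, and it was below E118 although it had more reads than E118 in each.

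**Figure D1:**
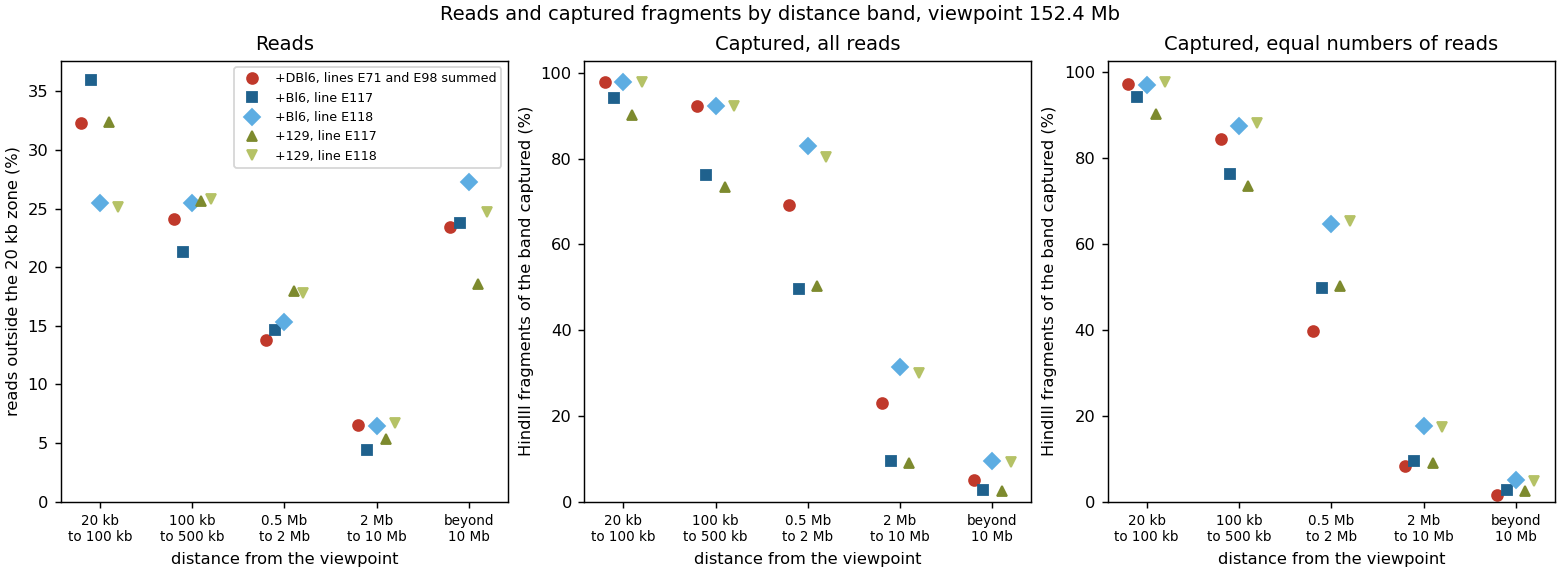
Share of reads (left), share of the HindIII fragments of each band that were captured (middle) and the same share expected when every library is reduced to the reads of the smallest +Bl6 library (right), by distance from the viewpoint. Each symbol is 1 library; read shares of +DBl6 lie among the controls in the near and far bands, while at equal reads its captured shares beyond 0.5 Mb, 39.7%, 8.32% and 1.6%, are below both +Bl6 libraries.

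To set the libraries side by side at 1 depth, the number of captured fragments was computed that would be expected after drawing 116199 reads from each, the number that +Bl6 E117 held outside the zone. At this depth 84.4% of the fragments between 100 kb and 500 kb were expected in +DBl6, 76.3% in +Bl6 E117 and 87.5% in +Bl6 E118. The order was different further out. From 0.5 Mb to 2 Mb the expected shares were 39.7% in +DBl6, 49.7% in E117 and 64.6% in E118, from 2 Mb to 10 Mb 8.32%, 9.34% and 17.6%, and beyond 10 Mb 1.6%, 2.75% and 5.1%. In all 3 bands +DBl6 was below both +Bl6 libraries and both +129 libraries. These values did not follow the order of depth. From 0.5 Mb to 2 Mb, +DBl6 E71 alone, with 1468092 reads outside the zone, had 38.6%, and +Bl6 E118, with 1267893, had 64.6%. Reads are not molecules, and the part of depth in these values was not tested.

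Reads beyond 2 Mb were concentrated on fewer fragments in +DBl6. They came from 2826 captured fragments with 399 reads each on average, against 1467 with 22.3 reads in +Bl6 E117 and 5029 with 85 reads in +Bl6 E118. With a minimum of 5 reads, 1192, 680 and 2826 distal fragments remained. The 10 most-read distal fragments held 19.4% of the distal reads of +DBl6, 11.5% of those of E117 and 5.17% of those of E118. It took 48 fragments to reach 50% of the distal reads of +DBl6, 98 in E117 and 296 in E118. The +129 libraries needed 90 and 275 fragments, close to the +Bl6 library of the same line. Taken singly, the +DBl6 lines needed 37 fragments in E71 and 55 in E98. As these lines share their captures, this is not a replication.

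The fall-off of reads with distance did not separate the homologue from the controls. The slope of log10 reads per kb of fragment against log10 distance, read at 100 kb from a smoothing spline with 4 degrees of freedom, was -1.04 in +DBl6. It was -1.1 in +Bl6 E117 and -0.944 in +Bl6 E118, and -0.986 and -0.915 in the +129 libraries. The +DBl6 slope lay between both +Bl6 values, and its difference from their mean, -0.0164, was smaller than their SD of 0.113. In the study this slope was used as a measure of local compaction of the fibre. The study named this viewpoint among the exceptions at which compaction differed between +DBl6 and +Bl6. The slopes above do not show that difference. The study fitted contact probabilities and took its error bars from the lines as biological replicates. Here reads per kb were fitted and the +DBl6 lines were summed. Why the results differ was not tested.

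**Figure D2:**
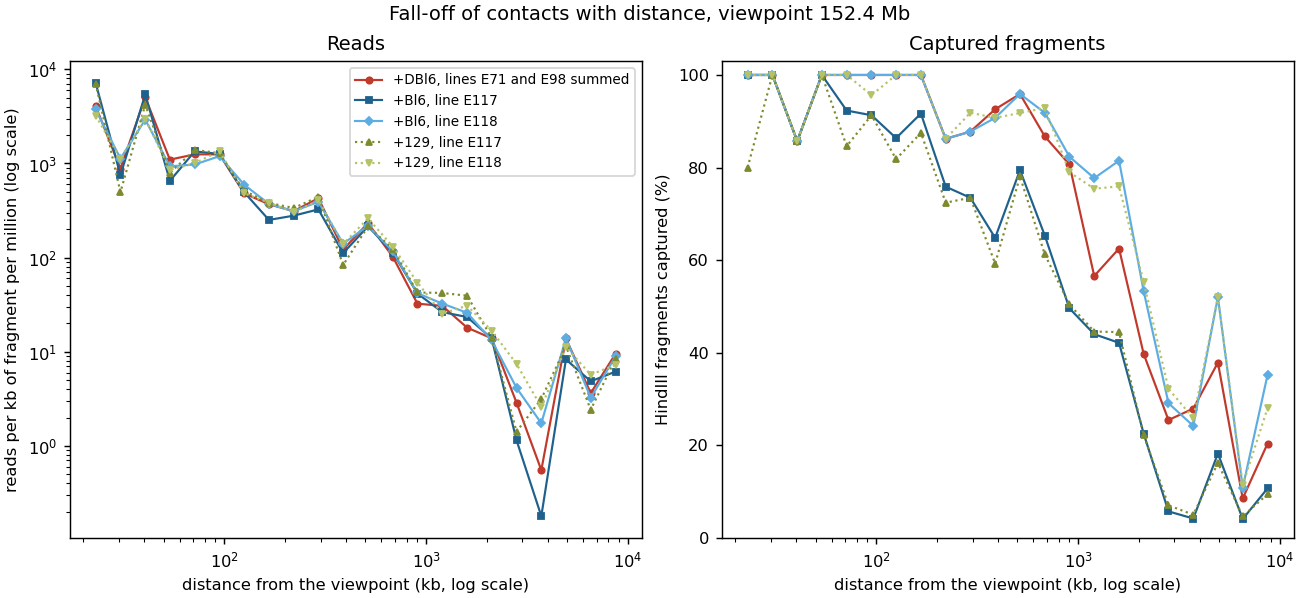
RPKM, reads per kb of fragment in a library of 1000000 reads (left, both axes logarithmic) and share of HindIII fragments captured (right) in 22 distance bins from 20 kb to 10 Mb; each line is 1 library. The read curves overlap up to about 1 Mb, with slopes at 100 kb of -0.915 to -1.1, and the captured shares part beyond 0.5 Mb.

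The local domain was spread over both sides of the viewpoint. Of the reads between 20 kb and 2 Mb, 54.6% lay on the telomere side in +DBl6, 46.3% in +Bl6 E117 and 57.2% in +Bl6 E118, with 50.6% of the HindIII fragments of that range on this side. The +129 shares were 48.1% and 55.2%, so the difference between E117 and E118 again exceeded that between +DBl6 and the control mean, 2.84 points (SD 7.72). With the 50 kb zone the difference turned to -2.47 points (SD 1.17), with 54.3% in +DBl6 below 55.9% and 57.6% in +Bl6. On the telomere side, the distance that took in 50% of the reads within 2 Mb was 157 kb in +DBl6 and 234 kb in both +Bl6 libraries, and the +129 libraries gave 258 kb and 234 kb. Both +DBl6 lines, at 157 kb and 170 kb, were below all 4 control libraries, but as they share their captures this is 1 observation. On the centromere side this distance was 121 kb in +DBl6, between 70.2 kb in E117 and 132 kb in E118. These are descriptions with no test.

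**Figure D3:**
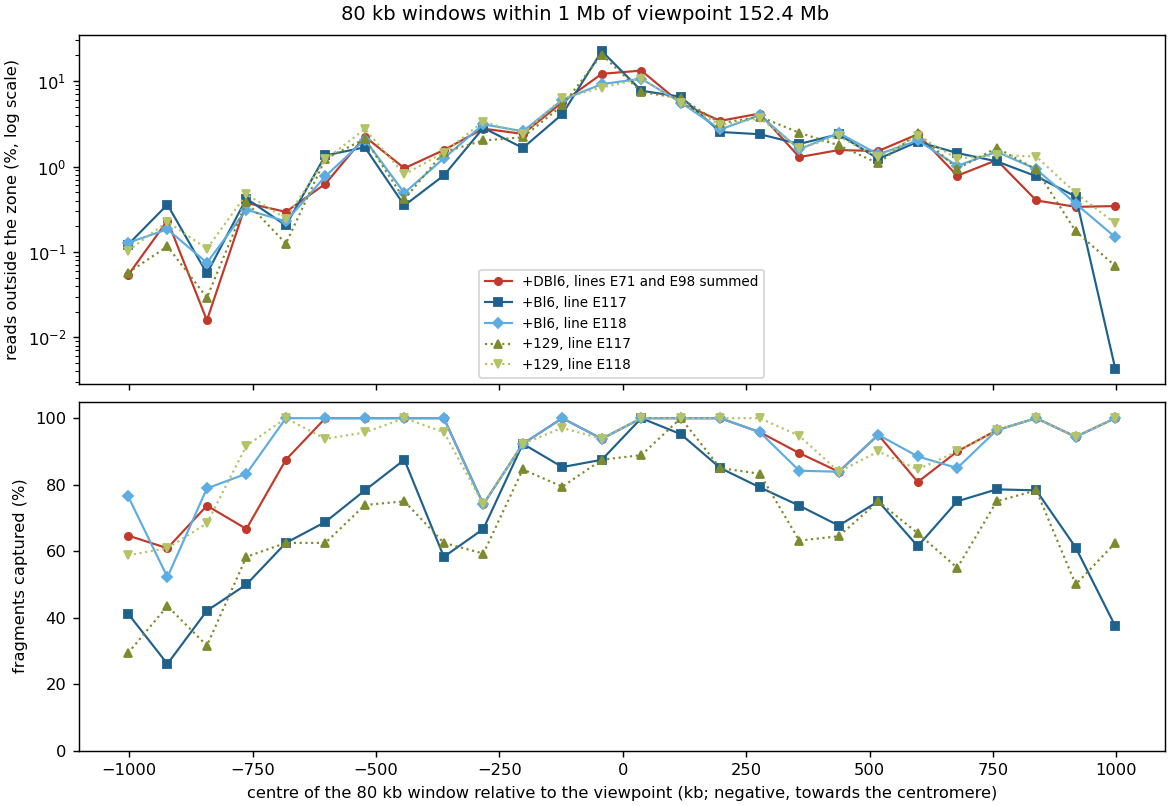
Share of reads (top, logarithmic axis) and of captured HindIII fragments (bottom) in 80 kb windows within 1 Mb of the viewpoint; each line is 1 library and negative distances lie towards the centromere. All libraries peak at the viewpoint, and E117 differs from E118 most in the window just on the centromere side, where both alleles of E117 hold over 20%.

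In single windows of 80 kb, the 2 next to the viewpoint held the most reads. The window on the telomere side, chr4:152480001-152560000, held 13.3% of the reads of +DBl6, 7.73% in +Bl6 E117, 10.7% in +Bl6 E118 and 7.48% and 10.7% in +129. The +DBl6 value was above all 4 controls. The window on the centromere side, chr4:152400001-152480000, held 12.2% in +DBl6, 22.5% in +Bl6 E117 and 9.24% in +Bl6 E118, with 20.5% and 8.42% in +129, so that the groups overlapped. Of the 14 tested windows within 0.5 Mb, the RPM of +DBl6, reads scaled to a library of 1000000 outside the zone, were above both +Bl6 libraries in 7 and below both in 4. Over all 537 tested windows these shares were 24% above and 48.4% below. Against all 4 control libraries, 6 of the 14 were above and 3 below, with 18.6% and 34.6% over all tested windows. The number of captured fragments was above both +Bl6 libraries in 1 of the 14 windows and below both in 0, with 9.31% and 18.8% over all tested windows.

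Within 1 Mb of the viewpoint lay 20 protein-coding genes, 13 towards the centromere and 7 towards the telomere. Reads over a gene's HindIII fragments are given as RPKM, that is RPM per kb of fragment. Ajap1, which codes for a protein of adherens junctions, was the nearest and the most contacted, with an RPKM of 253 in +DBl6, 225 in +Bl6 E117 and 273 in +Bl6 E118. It had 25, 22 and 25 of its 27 HindIII fragments captured, and the +DBl6 value lay between the controls. Nphp4, whose product belongs to the transition zone of cilia, had 73.5 in +DBl6, 157 in +Bl6 E117 and 102 in +Bl6 E118, and 147 and 156 in +129. Its +DBl6 value was below all 4 controls, while all 17 of its fragments were captured in +DBl6 and in E118 and 13 in E117.

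Other genes of the centromere side went either way. Rpl22, a protein of the large ribosomal subunit, had an RPKM of 164 in +DBl6 against 90.6 and 55.8 in +Bl6, from 2 captured fragments in each of these libraries. Chd5, a chromatin remodeller of neurons, had 60.5 against 54.2 and 32. Kcnab2, a subunit of potassium channels, had 29.3 against 21 and 25.1. Icmt, which methylates the end of prenylated proteins, had 1.5 against 18.2 and 30.4 although 8 of its 8 fragments were captured in +DBl6, and Rnf207 had 0.541 against 39.7 and 26.3. Acot7, an acyl-CoA thioesterase, had 16 against 33.7 and 19.5, and Plekhg5 had 0.228 against 14.8 and 20.6. Espn, an actin-bundling protein, had 24.9 against 8.9 and 9.36. Hes2 and Hes3, transcriptional repressors of the Hes family, Tnfrsf25 and Gpr153 had at most 3 HindIII fragments each and 0.701, 0.0173, 0.0288 and 0.00997 in +DBl6. With so few fragments a gene's value rests on single captures.

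On the telomere side beyond Ajap1, Dffb, the caspase-activated nuclease, had 75.4 in +DBl6 against 189 in both +Bl6 libraries and 248 and 205 in +129, with all 5 of its fragments captured in each. Trp73, a member of the p53 family, had 41.3 against 0.594 and 17.5, with 10, 4 and 10 of 10 fragments captured. Ccdc27 had 135 against 67.4 and 71.4 from 4, 3 and 4 of 4 fragments. A430005L14Rik had 19.8 against 12.5 and 122, BC046331 29.2 against 13.8 and 55.7, and Lrrc47 0.0164 against 3.2 and 15.1. Over the 20 genes, +DBl6 was above both +Bl6 libraries at 7, below both at 9 and between them at 4, and against all 4 controls it was above at 6 and below at 7. Over the 26 tested windows within 1 Mb, 38.5% were above both +Bl6 libraries and 38.5% below both. Against all 4 controls, 30.8% of them were above and 30.8% below. Over all 537 tested windows, most of them beyond 2 Mb, 24% were above both +Bl6 libraries and 48.4% below both. The gene counts were near the shares within 1 Mb and are not read as a trait of these genes. No gene was tested by itself.

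Reads in 80 kb windows were compared with edgeR's quasi-likelihood test, with TMM scaling and Benjamini-Hochberg adjustment over the 9953 windows tested at the 12 viewpoints. TMM, the trimmed mean of M-values, scales each library on the windows that change least. At this viewpoint 10 of 537 tested windows (1.86%) passed the threshold of 0.05, each with more reads in +DBl6. At an unadjusted p under 0.05 there were 74. The control contrast of +129 against +Bl6 gave 0 of 537 (0%), with 11 windows at an unadjusted p under 0.05. DESeq2 also gave 0 there, with 55 at an unadjusted p under 0.05. Both alleles came from the same control lines, so differences between lines fell on both sides of this contrast. It is therefore no background for +DBl6 against +Bl6, which compares different lines. Over all viewpoints, 17 windows (0.171%) were called in +DBl6 against +Bl6. Of the 10 windows, 5 lay near the viewpoint, at most 0.236 Mb away, and 5 lay more than 2 Mb away. The near ones did not form 1 block, since the window starting at chr4:152560001 between them was not called. By captured fragments in place of reads, 0 of 1106 windows (0%) passed in edgeR, with 19 at an unadjusted p under 0.05, and with a minimum of 5 reads per fragment also 0, with 6.

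The scaling bears directly on these calls. The TMM factor was 0.473 for +DBl6 and 1.18 and 1.25 for +Bl6, and the median log2 change over the tested windows was -0.52 with TMM and -1.91 when libraries were scaled by total reads. Scaled by total reads, 3 windows passed, 2 higher and 1 lower, all 3 beyond 2 Mb. With DESeq2 the calls were 14 higher and 47 lower, and 0 of the higher ones lay within 2 Mb. With both +DBl6 lines entered as 2 libraries, 0 of the 10 windows passed. Changes under TMM are therefore changes relative to the bulk of the tested windows, most of them distant, which were lower in +DBl6. Most libraries in the fit were controls, so windows with reads only in +DBl6 could not be tested. The filter thus favoured windows lower in +DBl6, and its part in the medians was not tested.

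**Figure D4:**
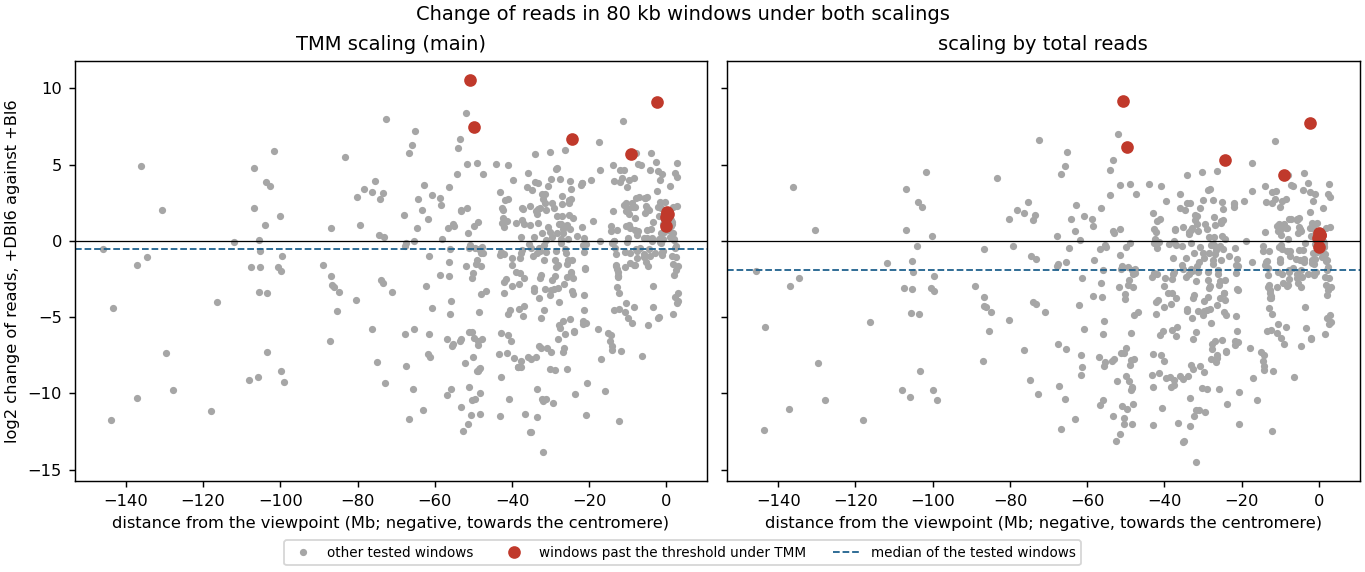
Log2 change of reads in each of the 537 tested windows, +DBl6 against +Bl6, by distance from the viewpoint, with TMM scaling (left) and scaling by total reads (right). The dashed line is the median, -0.52 and -1.91. The 5 marked windows near the viewpoint move to about 0 on the right, between -0.38 and 0.53, and the 5 distant ones stay above 4.

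The 5 windows near the viewpoint changed little by total reads. The window chr4:152480001-152560000 held 133100 RPM in +DBl6, 77330 in +Bl6 E117 and 107300 in +Bl6 E118. Its log2 change was 1.89 ± 0.25 (SE; adjusted p = 2.01e-09, edgeR) under TMM and 0.53 by total reads, where the adjusted p was 0.79. All 18 of its HindIII fragments were captured in the 3 libraries. The window chr4:152320001-152400000 held 56710, 41120 and 60430 RPM, with a log2 change of 1.53 under TMM (adjusted p = 0.00882, edgeR) and 0.16 by total reads. The window chr4:152720001-152800000, which overlaps Ajap1, held 41820, 23870 and 39940, with log2 changes of 1.76 (adjusted p = 0.0123, edgeR) and 0.39. The window chr4:152640001-152720000 held 34300, 25380 and 27190, with 1.74 (adjusted p = 0.0401, edgeR) and 0.38. In the window chr4:152400001-152480000 the direction turned, from 0.96 under TMM (adjusted p = 0.0211, edgeR) to -0.38 by total reads. Without +Bl6 E117 the TMM value of this window was 2.07 (adjusted p = 7.54e-08, edgeR), and without +Bl6 E118 it was 0.52 (adjusted p = 0.454, edgeR), so that 1 control library decided it. By total reads 0 of these 5 windows passed, and without the +129 libraries 1 passed, chr4:152480001-152560000.

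The 5 distant windows were carried by few fragments. Window chr4:101600001-101680000, 50.8 Mb away, overlaps the genes Gm12794, Gm12790 and Gm12789, of which Gm12794 is listed in RefSeq as Pramel19, a member of the PRAME-like gene family. It held 5881 RPM in +DBl6, 0 in +Bl6 E117 and 15.8 in +Bl6 E118, and 0 and 174 in +129. The log2 change was 10.53 ± 1.68 (SE; adjusted p = 2.78e-06, edgeR), and 16.40 without +Bl6 E118, the only +Bl6 library with reads there, so its size rests on that library. A single fragment, chr4:101611307-101613735, held 99.99% of the +DBl6 reads, with 9112 reads in E71 and 13064 in E98, 0 in +Bl6 E117 and 3 in +Bl6 E118. Of 26 HindIII fragments 2 were captured in +DBl6 and 2 in E118, and with at least 5 reads 1 in each. When each library's most-read fragment of the window was left out, the window no longer reached the minimum of reads.

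Window chr4:102720001-102800000, 49.7 Mb away, overlaps Wdr78, a subunit of axonemal dynein, and Mier1, a transcriptional regulator. It held 6715 RPM in +DBl6, 146 in +Bl6 E117, 47.3 in +Bl6 E118, and 1940 and 233 in +129. The log2 change was 7.49 (adjusted p = 7.68e-05, edgeR) and did not pass without +Bl6 E118 (6.91; adjusted p = 0.124, edgeR). Of its fragments 4, 4 and 3 of 30 were captured in +DBl6 and in the 2 +Bl6 libraries. The fragment chr4:102777992-102779756, in an intron of Wdr78, held 99.99% of the +DBl6 reads, with 9203 in E71 and 16117 in E98. With the most-read fragment left out in the same way the log2 change was -3.79 and did not pass.

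Window chr4:150080001-150160000, 2.32 Mb away and without an annotated gene, held 5317 RPM in +DBl6, 0 in +Bl6 E117 and 43.4 in +Bl6 E118. The log2 change was 9.11 (adjusted p = 7.68e-05, edgeR), and 16.25 without +Bl6 E118. By total reads it did not pass (adjusted p = 0.075, edgeR). The fragment chr4:150140879-150141637 held 99.87% of the +DBl6 reads, 9371 in E71 and 10654 in E98, with 0 and 1 in the 2 +Bl6 libraries. The window had 5, 0 and 4 of its 18 fragments captured, or 3, 0 and 2 with at least 5 reads.

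Window chr4:128080001-128160000, 24.3 Mb away, lies in Csmd2, a gene for a large membrane protein with CUB and sushi domains. It held 5758 RPM in +DBl6, 8.61 in +Bl6 E117 and 278 in +Bl6 E118, and 882 and 370 in +129. The log2 change was 6.68 (adjusted p = 0.00271, edgeR). It did not pass by total reads (adjusted p = 0.26, edgeR), without +Bl6 E117 (0.29) or with fragments under 5 reads set to 0 (0.219), and it was 10.75 without +Bl6 E118. An intronic fragment, chr4:128107227-128108791, held 91.49% of the +DBl6 reads. The captured fragments were 4 in +DBl6, 1 in E117 and 11 in E118 of 15, so that by fragments +DBl6 lay between the controls, and the fitted log2 change in captured fragments was -0.30.

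Window chr4:143280001-143360000, 9.12 Mb away, was the exception to the single fragments. It holds Gm13089 and Gm13078, listed in RefSeq as Pramel23 and Pramel24. It had 8307 RPM in +DBl6, 241 in +Bl6 E117 and 594 in +Bl6 E118, and 1131 and 41.1 in +129. The log2 change was 5.68 (adjusted p = 0.00208, edgeR) and 4.31 by total reads, where it did not pass (adjusted p = 0.263). Its most-read fragment held 40.17% of the +DBl6 reads, and without the most-read fragment the window stayed past the threshold at a log2 change of 6.17 (adjusted p = 4.43e-06, edgeR). It did not pass without +Bl6 E117 (adjusted p = 0.149, edgeR), without +Bl6 E118 (0.0855) or with fragments under 5 reads set to 0 (0.219). By captured fragments, 10 of 23 were seen in +DBl6, 2 in +Bl6 E117 and 16 in +Bl6 E118, and with at least 5 reads 8, 1 and 8. The +DBl6 count was not above E118, and the captured fragments did not pass the test here or in any other window.

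**Figure D5:**
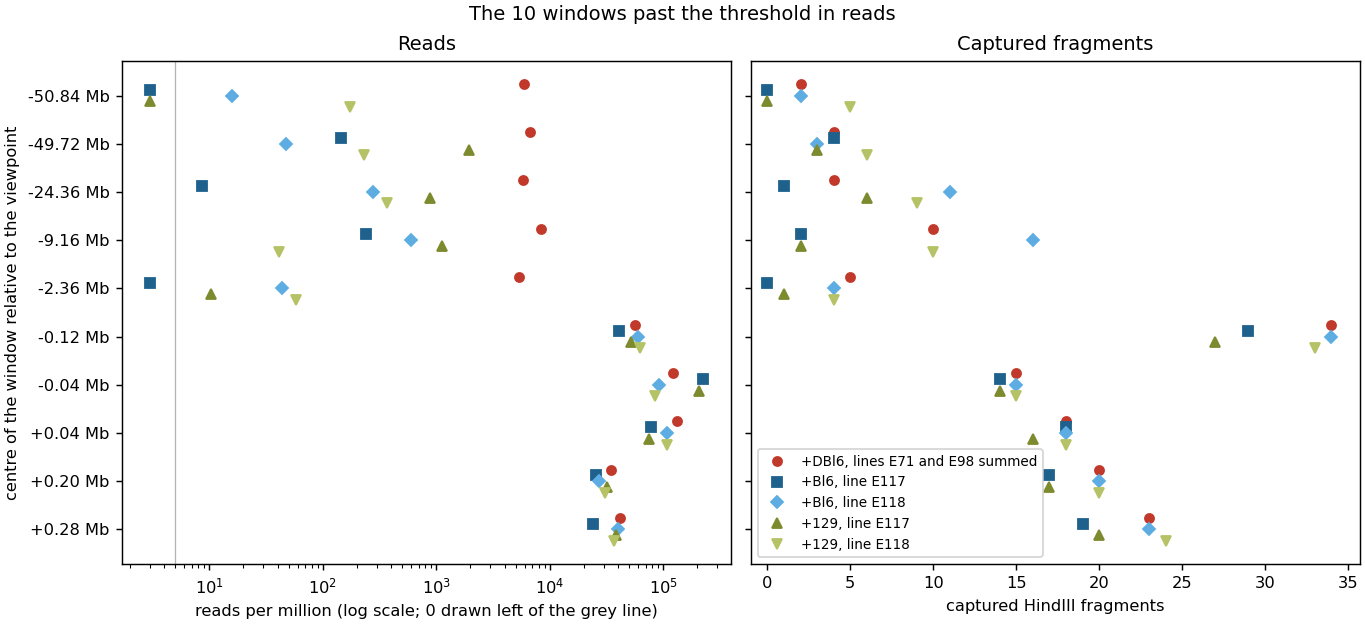
RPM (left, logarithmic axis) and captured HindIII fragments (right) in the 10 windows past the threshold in reads, ordered by distance from the viewpoint; each symbol is 1 library. In the 5 distant windows +DBl6 stands at 5317 to 8307 RPM above all controls, while its captured fragments, 2 to 10, lie within or near the range of the controls.

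The ends of the fragments that carried these distant gains are shown because reads are placed by HindIII ends. Each line starts at the HindIII site, in capitals, and runs 30 bases into the fragment, on the strand given, from NCBI37.
Gm12794 fragment, telomere-side end, minus strand, chr4:101613700-101613735: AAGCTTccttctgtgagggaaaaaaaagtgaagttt
Wdr78 fragment, telomere-side end, minus strand, chr4:102779721-102779756: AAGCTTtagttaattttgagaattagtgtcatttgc
Csmd2 fragment, centromere-side end, plus strand, chr4:128107221-128107256: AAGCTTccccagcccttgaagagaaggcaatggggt
Csmd2 fragment, telomere-side end, minus strand, chr4:128108756-128108791: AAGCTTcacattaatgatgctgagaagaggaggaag
Gm13078 fragment, centromere-side end, plus strand, chr4:143315489-143315524: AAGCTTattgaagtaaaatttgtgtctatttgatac
Gm13078 fragment, telomere-side end, minus strand, chr4:143316794-143316829: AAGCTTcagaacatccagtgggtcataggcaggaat
Intergenic fragment, centromere-side end, plus strand, chr4:150140873-150140908: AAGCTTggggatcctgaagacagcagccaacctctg
Intergenic fragment, telomere-side end, minus strand, chr4:150141602-150141637: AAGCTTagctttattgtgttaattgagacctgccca
Each of these 8 ends occurred at 1 HindIII end of the whole genome, also when 3 mismatches were allowed. The centromere-side end of the intergenic fragment has a DpnII site (gatc) just after its HindIII site. A capture cut there by DpnII would not hold the 30 bases shown. The opposite end of the Wdr78 fragment matched 65 HindIII ends exactly and that of the Gm12794 fragment matched 2, so only the ends shown could give a unique match there.

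The same windows were looked up from the neighbouring viewpoints 152.1 Mb and 152.9 Mb, whose fragments lay 0.339 Mb and 0.44 Mb away and whose +DBl6 pairs likewise shared their captures. The leading fragment at 128107227 had 0 +DBl6 reads from 152.1 Mb and 2 from 152.9 Mb, and that at 102777992 had 2 and 0. The Gm12794 fragment had 0 and 1. The leading fragment of the gene-free window had 1157 +DBl6 reads from 152.1 Mb and 0 in both +Bl6 libraries, but 1 from 152.9 Mb. The Gm13078 fragment had 87 +DBl6 reads from 152.1 Mb, against 0 and 171 in +Bl6, and 175 from 152.9 Mb, against 2 and 2. In the whole Pramel window, +DBl6 held 961 RPM from 152.1 Mb, against 0 and 1380 in +Bl6, and 1030 from 152.9 Mb, against 412 and 437. There +DBl6 thus lay between the controls from 152.1 Mb and above both from 152.9 Mb. From 152.1 Mb it was above both in windows chr4:101600001 (106 RPM against 0 and 10.1) and chr4:128080001 (1040 against 768 and 681). The same held in chr4:150080001 (748 against 76.8 and 7.24). From 152.9 Mb it was above both in chr4:102720001 (916 against 155 and 20.8). It was below both from 152.9 Mb in chr4:128080001 (10.1 against 1800 and 1810) and chr4:150080001 (3.35 against 51.5 and 633). In the other cases it lay between them. The region of the viewpoint itself, 40 kb on each side, took 3.77% of the +DBl6 reads of 152.1 Mb against 4.08% and 2.91% in +Bl6, and 2.53% of those of 152.9 Mb against 1.77% and 2.55%. In both cases the intact homologue lay between the 2 +Bl6 libraries.

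The most-read distant fragments of +DBl6 were of the same kind as those in the called windows. The first was chr4:27825715-27828973, intergenic and 125 Mb away, with 16049 reads in E71 and 18914 in E98, or 3.1% of all distal reads. +Bl6 held 0 reads there in E117 and 2 in E118. The second, chr4:81672206-81673056, also intergenic, had 14209 and 13100 reads against 0 and 2, and the third was the Wdr78 fragment. The controls had their own leading fragments: chr4:144115179-144115608 in 9430007A20Rik led E117 with 582 reads and had 217 in E118 and 0 in +DBl6. The fragment chr4:127777610-127778620, in an intron of Csmd2, was among the 3 most-read in both +Bl6 libraries, with 454 and 2509 reads, and had 9 in +DBl6. In E118 the leading fragment, chr4:128179354-128180769, also lay in Csmd2, with 2705 reads against 0 in E117 and 8 in +DBl6, and the next, chr4:144119076-144122961 in 9430007A20Rik, had 2668 against 0 and 2649. The second of E117, chr4:146652564-146652938 over Gm16889, Gm17317 and Gm13135, had 474 reads there, 683 in E118 and 6 in +DBl6. One of its ends matched 5 HindIII ends of the genome.

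At a resolution of 1 Mb, the captured shares of the distant bins had a similar order in the libraries, although single bins differed. Over 150 bins beyond 2 Mb, the share of HindIII fragments captured in +DBl6 correlated with that in +Bl6 E117 with a Spearman coefficient of 0.795 and with that in E118 at 0.836, and the 2 +Bl6 libraries correlated at 0.819. For the share of distal reads the coefficients of +DBl6 were lower, 0.557 with E117 and 0.666 with E118, and that of the +Bl6 pair was 0.668. The bins share the base composition and the mappability of their fragments, and the values are a description. The bins with the highest captured share in +DBl6 started at 154 Mb (44.4%), 155 Mb (38.8%), 147 Mb (38%), 127 Mb (35.4%) and 142 Mb (32.3%). In +Bl6 E118 these 5 bins had 55.6%, 49.3%, 58.4%, 60.4% and 48.7%, and in E117 15.4%, 11.8%, 21.6%, 24.2% and 21%. The bin at 127 Mb was the highest in both +Bl6 libraries and the fourth in +DBl6. In the bin at 148 Mb, the sixth in +DBl6, 31.2% of 218 fragments were captured there, 25.7% in E118 and 2.75% in E117. The bin at 66 Mb had 19.2% of 364 fragments in +DBl6, 6.04% in E117 and 4.95% in E118. The +129 libraries had 3.85% and 4.67% there, and the +DBl6 lines singly 8.79% in E71 and 11.8% in E98. It held 0.0579% of the distal +DBl6 reads. In the bin at 67 Mb the shares were 13.1% in +DBl6, 4.47% in E117 and 5.43% in E118. The bin at 131 Mb went the other way, with 10.3%, 12.6% and 36.4%. Of the 2826 distal fragments of +DBl6, 50.7% were also captured in at least 1 +Bl6 library and carried 81.1% of the distal +DBl6 reads, and 49.3% were captured in neither. With a minimum of 5 reads in both, an alternative chosen after seeing the data, 366 of 1192 fragments (30.7%) were shared with at least 1 +Bl6 library and carried 35.4% of the distal +DBl6 reads, so most of the reads counted as shared lay on fragments with fewer than 5 reads in each +Bl6 library.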

How the data were processed

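PE-4Cseq libraries of viewpoint 152.4 Mb were grouped by the labels. Per the authors' methods, the allele was read from a polymorphism in the viewpoint read, and the partner read, trimmed to 30 bases, was aligned with Bowtie (version not given in the sources used here) to sequences bordering HindIII sites of mm9, with up to 3 mismatches and unique hits only. The authors deposited unnormalised read counts for each of 48320 HindIII fragments, whose borders matched all 48319 sites of chromosome 4 in NCBI37. The deposited region tables hold the authors' own comparisons and were not used. The viewpoint fragment was the most-read fragment in the labelled 0.1 Mb. Fragments within 20 kb were left out. Windows of 80 kb were kept where 50% or more of the libraries had 10 or more reads, and edgeR 4.0.16 (glmQLFit and glmQLFTest after TMM; R 4.3.3) was run on them, with +DBl6 summed as 1 library and the +Bl6 and +129 libraries giving the spread, and with DESeq2 1.42.0 as an alternative. RPM and RPKM are scaled to 1000000 reads outside the zone, without the TMM factor. The fits were tested on simulated counts, in which the reads fit found few of the changed windows and the captured-fragment fit found more but not all, so a count of 0 does not show that no window differs. Library depth was 119821 to 2659299 reads on the C57Bl6 allele. The windows named are all those past the threshold, the genes named are those in these windows and the protein-coding genes within 1 Mb, and the distal fragments named are the 3 most-read of each library. Members, lists and the summing of the +DBl6 lines were chosen with earlier results of these data known. Only 2 control lines, as far as the labels say separate cultures, give the spread.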

Additional observations from a re-analysis of the deposited data

Results flagged for a closer look

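The libraries assigned to the 129S5 allele in the deleted cells took no part in the comparisons, since their viewpoint is deleted on that chromosome, and still held reads above the limit of 3 that a count of 0 allows. Line E71 held 845 such reads on 252 captured fragments and line E98 held 7316 on 1311. Of the 151 fragments of E71 beyond 0.5 Mb, 98% were captured in its own +DBl6 library. Of the 1095 fragments of E98, 60.6% were captured in its own +DBl6 library, 83.1% in +129 of E118 and 79.9% in +Bl6 of E118. The origin of these reads was not tested.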

How the results depend on the processing

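Against the 10 windows called in reads, the count was 61 with DESeq2 (14 higher, 47 lower), 3 with scaling by total reads, 4 with at least 100 reads, 18 with no minimum, 2 in 40 kb and 19 in 160 kb windows, 3 with fragments under 5 reads set to 0, 0 with captured fragments in place of reads and 26 when adjusted over this viewpoint alone. Counts of 7 to 12 came without +129, with either +DBl6 line alone and without the most-read fragment of each window. With both +DBl6 lines as 2 libraries 1 window was called, and with the purification batch as a replicate block 21. The block rests on a pairing of the lines in the methods. Deviations within the pairs correlated at 0.0593 over 537 windows, but the +DBl6 lines share their captures, so this value says nothing about the pairing. The next alternatives were chosen after seeing the data. Only fragments captured in both +DBl6 lines gave 6 windows, and leaving out 1 control library at a time gave 7 to 18, with 18 without +129 replicate 2 (E118), 15 without +129 replicate 1, 7 without +Bl6 replicate 1 (E117) and 8 without +Bl6 replicate 2. A Mann-Whitney rule modelled on the study, applied to both pairs of lines, gave 615 of 1283 windows, 584 of them lower. In that rule 1 read is added to every fragment, and 1 read was worth 8.61 RPM in E117 and 0.681 in E71.

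Captured fragments per window and +129 against +Bl6 gave 0 calls under every alternative run. The named windows were compared over 13 or 14 alternatives each, without DESeq2, other minima of reads per window or other window sizes. Of these windows, 3 turned sign under 1 alternative each: chr4:102720001 to -3.79 without the most-read fragment, chr4:128080001 to -0.30 in captured fragments and chr4:152400001 to -0.38 by total reads. With captured fragments after thinning the differences in share moved by more than the control SD, to 7.45 points between 20 kb and 0.5 Mb and -11.7 beyond 2 Mb. Without +Bl6 replicate 1 or 2, the differences ranged from -0.937 to 5.32 points near the viewpoint, -3.81 to 1.77 beyond 2 Mb and -2.62 to 8.29 on the telomere side, and the slope difference from -0.096 to 0.0632. Signs therefore depended on the control line, and with a zone of 50 kb the telomere-side difference turned to -2.47 with both controls kept. The depth of E117 limits what can be seen of rare distant contacts.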
